A study of Mus musculus with 14 samples.

Results

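Single-promoter short loops are contacts called between 2 bins of 10 kb that lie less than 100 kb apart, of which exactly 1 is marked as holding an H3K4me3 peak, the histone mark of active gene starts. They were taken from 4 loop lists made with the caller MAPS by 2 criteria, the peak marks of the anchors and the distance between the anchor starts, and neither uses the strength of the contact. They numbered 1623 of 41667 loops in NPC auxin, 5099 of 82861 in NPC control, 1411 of 27610 in ESC auxin and 3854 of 56714 in ESC control. Over the 4 lists these were 8567 distinct bin pairs at 5241 promoter bins. The assay, PLAC-seq, joins DNA ends that lie close together in the nucleus and enriches the joined fragments for a histone mark with an antibody. F123 is a mouse embryonic stem cell (ESC) line, used as stem cells or as neural precursor cells (NPCs) made from it. All 4 groups carried the CTCF-AID allele, in which the DNA-binding protein CTCF bears a degron, a tag that leads to degradation once auxin is added. NPC auxin cells were differentiated to day 4 with auxin, NPC control cells to day 4 without it, ESC auxin cells had auxin for 48 h, and ESC control cells had it for 0 h. Each group had 2 samples and 1 list, so no difference below has a replicate check and none was tested. The intervals given are exact Clopper-Pearson 95% intervals and cover counting error only.

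The H3K4me3 marks were the same in the auxin and control lists of a cell type for 100% of their shared bins (26469 in NPCs, 17775 in ESCs), so a marked bin does not show that the mark was present after auxin. The label of a promoter fitted only part of the marked bins. A bin was counted as coding if it held the start of a protein-coding gene in the RefSeq promoter table. For coding genes without an entry there, either gene end was counted, so the shares can overstate gene starts. Of the promoter bins with a short loop, 64.5% of 1188 in NPC auxin and 65.0% of 3299 in NPC control were coding. In ESC auxin 59.7% of 1118 were, and in ESC control 56.5% of 2777. Genes of other kinds alone accounted for 5.47%, 4.18%, 5.72% and 4.61% of the bins in the same order of lists. The remaining marked bins held neither a gene start of the RefSeq promoter table nor such a gene end.

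CTCF binds DNA at a long motif, and the cohesin ring, which extrudes DNA loops, halts where CTCF sits in a given orientation. Contacts anchored by CTCF on both sides are one class of loop, and contacts between a gene start and an enhancer, a distal element that raises transcription, are another. CTCF is also known to bind directly beside many gene starts. A loop list of this assay cannot tell a contact present in fewer cells from one that is weaker in each cell.

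The following 4 promoter sequences belong to bins with short loops and are shown because each holds a match to the core letters of the CTCF motif, in capitals. They are RefSeq sequences of build GRCm38.p6 from 250 bases before to 50 after the gene start, given 5′ to 3′ along the gene. Igsf9, which encodes a cell adhesion protein of the immunoglobulin family, lies on the plus strand at chr1:172481963-172482262 and had 1 short loop in NPC auxin, 3 in NPC control, 3 in ESC auxin and 3 in ESC control. Ube2l3, a ubiquitin-conjugating enzyme, lies on the minus strand at chr16:17201443-17201742 and had 3, 4, 3 and 3 loops in that order. Kif1b, a kinesin motor of axonal transport, lies on the minus strand at chr4:149307684-149307983 and had 3 loops in NPC control and 0 in the other lists. Igfbp4, a binding protein of insulin-like growth factors, lies on the plus strand at chr11:99040994-99041293 and had 0 loops in NPC auxin, 4 in NPC control, 0 in ESC auxin and 2 in ESC control. In Igfbp4 the match is on the strand opposite to the gene and so reads as its reverse complement.
Igsf9: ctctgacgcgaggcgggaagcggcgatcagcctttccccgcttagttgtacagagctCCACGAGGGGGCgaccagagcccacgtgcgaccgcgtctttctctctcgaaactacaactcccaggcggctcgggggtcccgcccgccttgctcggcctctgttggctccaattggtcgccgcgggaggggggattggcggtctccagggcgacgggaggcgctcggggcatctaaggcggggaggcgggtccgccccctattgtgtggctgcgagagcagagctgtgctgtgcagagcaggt
Ube2l3: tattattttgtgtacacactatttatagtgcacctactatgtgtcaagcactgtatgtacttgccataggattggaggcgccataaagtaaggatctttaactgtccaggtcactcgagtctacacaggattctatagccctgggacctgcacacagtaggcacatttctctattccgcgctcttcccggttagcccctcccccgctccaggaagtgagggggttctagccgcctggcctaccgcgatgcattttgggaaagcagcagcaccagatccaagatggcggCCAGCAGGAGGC
Kif1b: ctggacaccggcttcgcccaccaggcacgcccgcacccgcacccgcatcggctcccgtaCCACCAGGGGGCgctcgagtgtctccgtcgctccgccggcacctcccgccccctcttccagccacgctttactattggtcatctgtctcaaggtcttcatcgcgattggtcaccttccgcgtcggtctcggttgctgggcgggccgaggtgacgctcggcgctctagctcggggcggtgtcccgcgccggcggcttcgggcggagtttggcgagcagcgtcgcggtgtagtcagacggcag
Igfbp4: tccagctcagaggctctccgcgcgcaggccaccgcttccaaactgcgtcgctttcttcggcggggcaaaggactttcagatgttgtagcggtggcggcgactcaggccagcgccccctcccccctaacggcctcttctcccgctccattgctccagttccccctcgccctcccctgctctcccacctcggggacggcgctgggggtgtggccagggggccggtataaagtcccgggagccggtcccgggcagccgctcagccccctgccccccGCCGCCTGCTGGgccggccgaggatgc

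With auxin, the lists held fewer short single-promoter loops in both cell types. NPC auxin had 31.8% of the number in NPC control, and ESC auxin had 36.6% of the number in ESC control. The auxin number was lower on 19 of 19 autosomes in both cell types, between 23.1% and 44.0% of the control number in NPCs and between 28.7% and 52.9% in ESCs. For the short loops with a peak at both anchors, the auxin number was 38.6% of the control number in NPCs and 45.9% in ESCs. For loops of 100 kb or more it was 46.7% in NPCs and 42.8% in ESCs with 1 marked anchor, and 72.8% and 68.8% with both marked. The single-promoter short loops therefore had the lowest auxin number relative to control of the 4 classes in both cell types. These percentages compare list sizes and do not count the same loops found again. As a share of its list, the class held 3.90% of loops in NPC auxin (3.71 to 4.09%), 6.15% in NPC control (5.99 to 6.32%), 5.11% in ESC auxin (4.85 to 5.38%) and 6.80% in ESC control. Between cell types, NPC control had 132% of the number in ESC control and was higher on 19 of 19 autosomes, and NPC auxin had 115% of the number in ESC auxin and was lower on 4 of 19.

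The difference with auxin varied with distance within the first 100 kb. At 20 kb, the shortest distance called, 267 loops were listed in NPC auxin against 339 in NPC control, and 201 in ESC auxin against 241 in ESC control. These are 78.8% and 83.4% of the control numbers. Fewer were the same loops: 105 (31.0%) of the 339 of NPC control were in NPC auxin. Of the 241 of ESC control, 66 (27.4%) were in ESC auxin. At 30 kb NPC auxin had 99 against 196 in NPC control, and ESC auxin had 83 against 142 in ESC control. At 90 kb NPC auxin had 367 against 1266 in NPC control, which is 29.0%, and ESC auxin had 322 against 969 in ESC control, which is 33.2%. The lowest auxin number, as a percentage of the control number, was 24.3% at 70 kb in NPCs and 27.6% at 50 kb in ESCs. The 20 kb loops made up 16.5% of the short loops in NPC auxin and 6.65% in NPC control, and 14.2% in ESC auxin and 6.25% in ESC control. Over 50% of them were not joined to a neighbouring loop by the caller: 56.2% in NPC auxin, 54.3% in NPC control, 63.2% in ESC auxin and 58.9% in ESC control stood alone. At 90 kb this share was 10.1%, 5.69%, 11.2% and 5.16% in the same order. The distal bins at 20 kb also had a shorter usable length in the caller's table, with medians of 8166 bases in NPC auxin and 8831 in NPC control, against 9635 and 9696 at 90 kb. The part of bin length in these numbers was not tested.

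**Figure D1:**
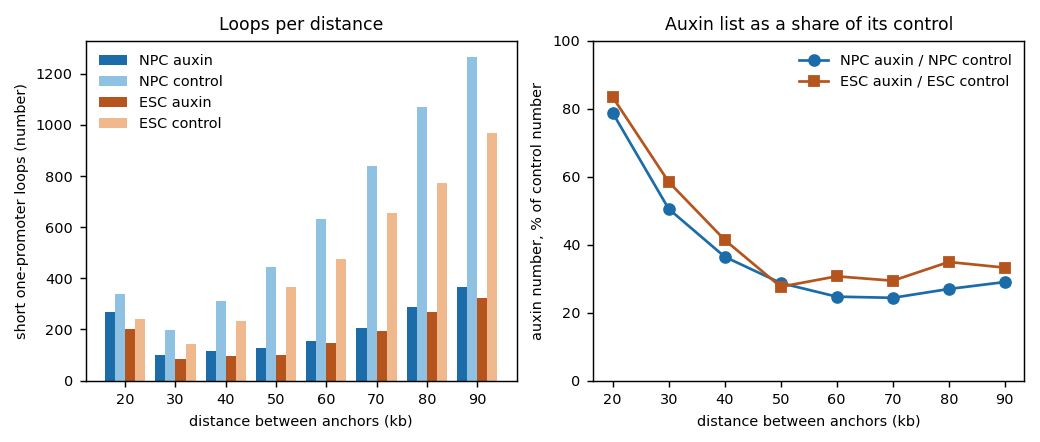
The left panel gives the number of short single-promoter loops in each of the 4 lists by the distance between anchors in kb, and the right panel gives the auxin number as a percentage of its control number. The auxin number is 78.8% of the control number in NPCs and 83.4% in ESCs at 20 kb, and lies under 60% from 30 kb on. It compares list sizes and is not a share of the same loops.

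Few of the control loops were listed again at the same 2 bins after auxin. Of the 5099 short loops of NPC control, 821 were in the NPC auxin list, which is 16.1% (15.1 to 17.1%), while 27% of all NPC control loops were. Of the 3854 of ESC control, 667 were in the ESC auxin list, which is 17.3% (16.1 to 18.5%), while 22.9% of all ESC control loops were. The short loops with both anchors marked were called again in 25.9% of cases in NPCs and 26.7% in ESCs. For longer loops with 1 marked anchor it was 24.8% in NPCs and 19.6% in ESCs, and with both marked 40.3% and 33.3%. Seen from the other side, 50.6% of the short loops of NPC auxin and 47.3% of those of ESC auxin were in the control list of their cell type. Over all loops these shares were 53.7% in NPC auxin and 47.0% in ESC auxin, so the short loops were near them. Loops called again were stronger in the control list: those called again in NPC auxin had a median ratio of count to expected background of 2.71 in NPC control, and those not called again had 2.28. In NPC control, 39.1% of 765 loops with a ratio of at least 3 and 8.45% of 1858 with a ratio under 2.2 were called again in NPC auxin. In ESC control, 40.7% of 511 and 10.1% of 1347 were called again in ESC auxin. A smaller share of this class than of longer loops with like FDR was called again. Among NPC control loops with an FDR as low as in the lowest 5th of the short loops, 32.4% of 1020 short single-promoter loops and 65.5% of 4904 longer ones were in the NPC auxin list. In ESC control these were 34.6% of 771 and 58.5% of 2361. In the highest 5th of FDR the gap was smaller, with 9.12% of the short and 15.0% of the longer loops in NPCs. In ESCs these were 9.08% and 11.8%. The classes were not matched for the ratio. Over all its loops in NPC control, the short class had a median ratio of 2.32. The longer loops with 1 marked anchor had 3.18. In ESC control these medians were 2.31 and 3.08. The part of the ratio in this difference was not tested.

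**Figure D2:**
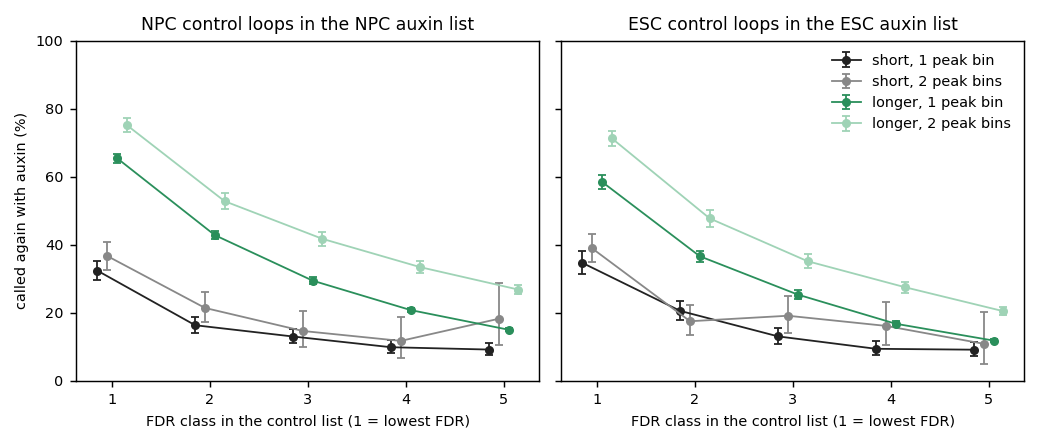
Each panel gives the percentage of control loops listed again with auxin, by 5 classes of FDR that hold equal numbers of short single-promoter loops (1 is the lowest FDR), for 4 classes of loop; bars are exact 95% intervals. In class 1 the short single-promoter loops are at 32.4% in NPCs and 34.6% in ESCs, under the longer loops with 1 marked bin at 65.5% and 58.5%.

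A loop absent from the auxin list was not always an empty neighbourhood. Of the 4278 NPC control loops not called again, 19.9% had a listed NPC auxin loop with each anchor within 1 bin, and of the 3187 of ESC control, 19.8% had one in ESC auxin. Their promoter bins took part in some loop of any length in the auxin list for 69.9% of 3001 bins in NPCs and 63.2% of 2463 in ESCs. The same shares over loops of all classes were not computed. The lists made with the other caller, FitHiChIP, held 11 of the 4278 in NPC auxin and 5 of the 3187 in ESC auxin. FitHiChIP also listed few of the short MAPS loops of the same group. The shares were 5.61% in NPC auxin, 9.75% in NPC control, 8.01% in ESC auxin and 10.5% in ESC control. Absence from its auxin lists therefore does not show that a contact was lost. That caller listed 263 short single-promoter loops in NPC auxin, 689 in NPC control, 339 in ESC auxin and 596 in ESC control.

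At the loops listed in both conditions, the contact counts differed little. The 821 pairs of NPCs had a median count of 70 in NPC auxin and 78 in NPC control, with a median log2 difference of -0.07 (quartiles -0.29 and 0.13), the same as the -0.07 of all shared NPC loops. The 667 pairs of ESCs had 62 in ESC auxin and 73 in ESC control, a median log2 difference of -0.14 against -0.11 for all shared ESC loops. In NPCs 82 of 821 were at least 1.5-fold lower with auxin, which is 9.99%, and 8 were at least 1.5-fold higher, while 15% and 3.65% of all shared NPC loops were. In ESCs 84 of 667 were lower, which is 12.6%, and 7 higher, while 13.7% and 1.98% of all shared ESC loops were. These counts come only from pairs that passed the caller's limits in both lists, and a pair that fell further is not among them. The total contacts of the groups, derived from the expected values of the FitHiChIP lists, differed. They were 59961568 in NPC auxin, 52337421 in NPC control, 48307867 in ESC auxin and 47519917 in ESC control. After the MAPS counts were scaled to those totals the medians were -0.27 in NPCs and -0.16 in ESCs. At the short loops shared between the FitHiChIP lists the direction turned, with medians of 0.047 over 229 loops in NPCs and 0.11 over 226 in ESCs.

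Between the cell types, 1665 of the 3854 short loops of ESC control were in the NPC control list, which is 43.2% (41.6 to 44.8%), while 50.3% of all ESC control loops were. With auxin, 372 of the 1411 of ESC auxin were in NPC auxin, which is 26.4% (24.1 to 28.7%), while 37.8% of all ESC auxin loops were. Seen from NPCs, the short loops were near the share of all loops. Of the short loops of NPC control 35.9% were in ESC control, while 34.5% of all NPC control loops were. Of those of NPC auxin 25.9% were in ESC auxin, while 25.1% of all NPC auxin loops were. At the 1665 pairs the median count was 72 in NPC control and 66 in ESC control (median log2 difference 0.09), with 278 at least 1.5-fold higher in NPC control and 129 lower. Over all shared loops of the controls 23.6% were higher and 5.98% lower. At the 372 pairs it was 73.5 in NPC auxin and 59 in ESC auxin (median log2 difference 0.20), with 71 higher and 11 lower in NPC auxin, against 24.3% and 3.64% of all shared loops. Scaled to the total contacts of the groups, both medians turned, to -0.047 for the controls and -0.11 with auxin. The class of a pair can change with the marks. Of 1831 short loops of NPC control also listed in ESC control, 211 (11.5%) had both anchors marked in ESC control, so the bin that was unmarked in NPCs carried a peak in ESCs. In the opposite direction, 45 of 1665 short loops of ESC control had both anchors marked in NPC control. With auxin, 60 of 421 short loops of NPC auxin had both anchors marked in ESC auxin. Most distinct pairs were in 1 list alone, 2747 in NPC control, 1877 in ESC control, 638 in NPC auxin and 515 in ESC auxin. Both controls and no auxin list held 1215, and all 4 lists held 255, of which 210 had 1 marked anchor in each list. The same split of all 137221 distinct loops was not computed, so these numbers are not a result about the class.

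The side of the gene start on which the partner lay differed between auxin and control. For this, the promoter bins whose coding gene starts all read one way were used, and a partner was called downstream if it lay in the direction of transcription. NPC auxin had 372 of 795 partners downstream, which is 46.8% (43.3 to 50.3%), against 1350 of 2420 in NPC control, which is 55.8% (53.8 to 57.8%). ESC auxin had 246 of 618 downstream, which is 39.8% (35.9 to 43.8%), against 803 of 1503 in ESC control, which is 53.4% (50.9 to 56.0%). The control lists leaned downstream and ESC auxin leaned upstream, while the interval of NPC auxin included equal shares. The intervals of auxin and control did not overlap in either cell type. In the FitHiChIP lists they overlapped in both, with 34.6 to 53.5% in NPC auxin against 48.6 to 59.6% in NPC control, and 31.1 to 49.1% in ESC auxin against a lower bound of 46.1% in ESC control. Under 50 kb the NPC intervals overlapped too, with 42.3 to 55.6% in NPC auxin and 49.7 to 59.1% in NPC control. Of the 18 chromosomes with oriented promoters, more partners lay downstream on 7 in NPC auxin, 18 in NPC control, 1 in ESC auxin and 14 in ESC control. With 1 vote for each promoter bin the shares were 46.2% in NPC auxin, 53.7% in NPC control, 38.3% in ESC auxin and 51.9% in ESC control. Among loops with a ratio of at least 3 the NPC shares were 54.8% in NPC auxin and 54.1% in NPC control, so the NPC difference was not seen there. The comparison was chosen after the values were seen.

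The same difference stood in the numbers. NPC auxin had 27.6% of the downstream loops of NPC control and 39.5% of its upstream loops, and ESC auxin had 30.6% of the downstream loops of ESC control and 53.1% of its upstream loops. Of the downstream loops of NPC control 14.8% (13.0 to 16.8%) were called again in NPC auxin, and of the upstream ones 19.9% (17.6 to 22.4%). In ESCs these shares were 15.4% (13.0 to 18.1%) and 22.1% (19.1 to 25.4%). Of the loops found with auxin and absent from the control list, 45.0% of 382 lay downstream in NPCs (40.0 to 50.2%), an interval that includes equal shares. In ESCs such loops leaned upstream, with 36.0% of 339 downstream (30.9 to 41.3%). Loops found in the control list and absent with auxin leaned downstream, with 57.3% of 2007 in NPCs and 55.5% of 1224 in ESCs. Loops of 100 to 200 kb showed a difference in the same direction, with 45.7% downstream in NPC auxin, 53.4% in NPC control, 47.2% in ESC auxin and 52.5% in ESC control. The 500 kb to 1 Mb loops had 45.5%, 50.7%, 48.9% and 52.0% in the same order, and there the ESC intervals overlapped.

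Partners inside the own gene lie downstream almost by construction, 95.2% of them in NPC auxin, 97.8% in NPC control, 95.4% in ESC auxin and 97.5% in ESC control. Partners inside the gene of the promoter made up 27.2% of the short loops with a coding gene start in NPC auxin, 29.5% in NPC control, 21.6% in ESC auxin and 24.7% in ESC control. Leaving them out lowers the downstream share in every list, so the level of what remains says nothing of a lean. Outside the own gene 29.8% of 588 partners lay downstream in NPC auxin (26.1 to 33.6%) and 37.9% of 1698 in NPC control (35.6 to 40.3%). In ESC auxin 24.8% of 487 did (21.1 to 28.9%), and in ESC control 39.4% of 1140 (36.5 to 42.3%). At genes of 100 kb or more the downstream share was 69.2% of 133 in NPC auxin and 79.2% of 481 in NPC control, with overlapping intervals (60.6 to 76.9% and 75.3 to 82.8%). It was 59.2% of 98 in ESC auxin (48.8 to 69.0%) and 76.1% of 209 in ESC control (69.7 to 81.7%). At genes under 20 kb it was 43.2% of 292 in NPC auxin and 43.9% of 918 in NPC control, where the intervals (37.4 to 49.0% and 40.7 to 47.2%) overlapped. In ESCs the short genes had 36.2% of 246 in ESC auxin (30.2 to 42.5%) and 45.1% of 639 in ESC control (41.2 to 49.0%), and these intervals overlapped too.

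**Figure D3:**
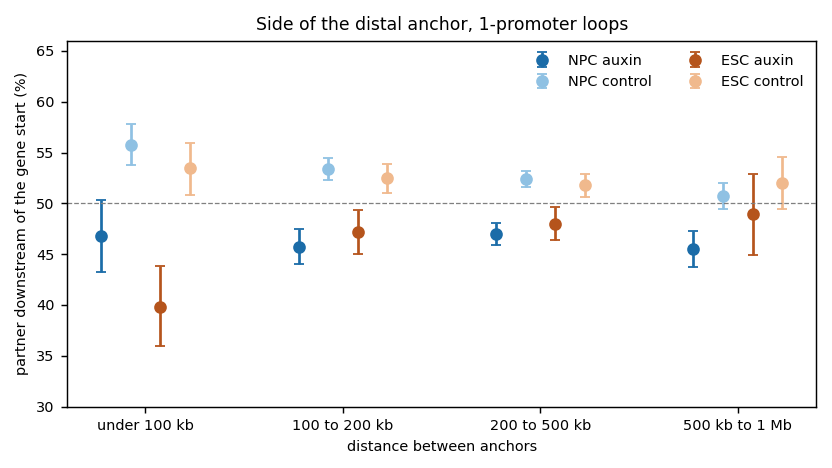
The percentage of single-promoter loops whose partner lies downstream of the gene start is given by distance for the 4 lists, with exact 95% intervals; the dashed line marks equal shares. Under 100 kb the auxin lists are at 46.8% in NPCs and 39.8% in ESCs, and the controls at 55.8% and 53.4%.

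The distal anchors were described by the genes they overlap. Gene starts were counted from the RefSeq promoter table alone. Coding genes without an entry there, among them all on chromosome 18, were left out of these counts. Shares with a start in the unmarked bin can thus be too low, and shares with none between too high. A protein-coding gene start lay in the unmarked bin in 3.88% of loops in NPC auxin, 4.26% in NPC control, 4.46% in ESC auxin and 4.49% in ESC control. The longer single-promoter loops had one in 3.04%, 2.79%, 4.10% and 3.52% in the same order. The bin overlapped the body of a coding gene in 57.7% of loops in NPC auxin, 65.5% in NPC control, 56.8% in ESC auxin and 63.6% in ESC control. For the longer ones this was 59.2%, 56.2%, 55.9% and 55.6%, so the short class was higher in both controls and near the longer loops with auxin. No coding gene start lay between the anchors in 65.4% of loops in NPC auxin (63.1 to 67.7%), 58.5% in NPC control (57.1 to 59.8%), 60.2% in ESC auxin (57.6 to 62.8%) and 50.2% in ESC control (48.6 to 51.8%). The share was higher in each auxin list than in its control, and the longer single-promoter loops had 33.0%, 37.2%, 28.9% and 29.2% in the same order of lists. No other marked bin lay between the anchors in 42.6% of the loops in NPC auxin, 36.6% in NPC control, 37.2% in ESC auxin and 30.2% in ESC control. The shares with nothing between were not matched for distance. The 20 kb loops, whose anchors lie closest, made up 16.5% of the short loops in NPC auxin and 6.65% in NPC control. In ESC auxin they made up 14.2%, and in ESC control 6.25%. The part of distance in these shares was not tested.

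Most promoter bins had 1 short loop, 889 of 1188 bins in NPC auxin, 2123 of 3299 in NPC control, 899 of 1118 in ESC auxin and 1985 of 2777 in ESC control. Of the 3694 bins with a short loop in either NPC list, 2844 (77%) had fewer in NPC auxin than in NPC control and 488 (13.2%) had more. Of 3239 in ESCs, 2354 (72.7%) had fewer in ESC auxin than in ESC control and 532 (16.4%) had more. Between the controls, 1582 of 4665 (33.9%) had fewer in NPC control than in ESC control and 2348 (50.3%) had more, and with auxin 790 of 1912 (41.3%) had fewer in NPC auxin than in ESC auxin and 902 (47.2%) had more. The bins named in the next paragraphs were picked by these numbers, which are given as a description.

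A few promoter bins kept their loops in all lists. Eif2ak1, the heme-regulated kinase of the translation factor eIF2, had 5 short loops in NPC auxin, 6 in NPC control, 6 in ESC auxin and 7 in ESC control. Its partner 60 kb downstream was among the strongest short loops present in all lists, with 245 reads in NPC auxin, 263 in NPC control, 154 in ESC auxin and 114 in ESC control, which are 6.88, 8.38, 5.65 and 4.88 times the expected background. The partners at 60, 70 and 80 kb were listed in all 4 lists and overlapped the Eif2ak1 gene. The partner 90 kb upstream was in all 4 lists too, with 79, 86, 54 and 59 reads in the same order, while those 30 to 70 kb upstream varied from list to list. Epha4, a receptor of ephrins in axon guidance, had 5, 4, 5 and 4 loops in the same order, all inside its own gene. The partner 60 kb downstream of Epha4 had 173 reads in NPC auxin, 157 in NPC control, 173 in ESC auxin and 186 in ESC control. Tbx3, a transcription factor of the pluripotency network, had 4, 4, 3 and 3 loops, all on 1 side, and the partner 80 kb away had 194, 140, 125 and 117 reads in the same order of lists. Sall4, another factor of that network, had 2, 2, 2 and 3, and its partner at 60 kb had 214, 275, 166 and 212 reads.

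A larger set had more loops in NPC control than in any other list and 0 or 1 in NPC auxin. Sh3bp5, which encodes a mitochondrial JNK-binding protein, had 0 loops in NPC auxin, 6 in NPC control, 0 in ESC auxin and 1 in ESC control. The 6 partners in NPC control lay 30 to 80 kb downstream, 4 of them inside the gene, with 89 to 285 reads at 2.16 to 2.99 times the background. Dact2, a regulator of Wnt and TGF-beta signalling, had 0, 6, 0 and 2 loops in the same order, with its partners in NPC control 40 to 90 kb downstream at 67 to 212 reads. The Dact2 bin still took part in 18 loops of any length in NPC auxin, against 21 in NPC control. Creb3l2, a transcription factor anchored in the endoplasmic reticulum, had 1, 6, 3 and 3 loops, all inside its gene, and the partner 90 kb downstream had 72 reads in NPC auxin against 152 in NPC control, and 66 in ESC auxin against 104 in ESC control. Wdr20, a subunit of deubiquitinase complexes, had 0, 5, 1 and 1, the kinase Cdk17 had 0, 5, 0 and 1, and the lipid kinase gene Pik3c2b had 0, 5, 2 and 3. Ccdc88c, a Dishevelled-binding protein, had 0 loops in NPC auxin and 5 in NPC control, and 1 in ESC auxin against 4 in ESC control. Its partner 70 kb inside the gene had 168 reads in NPC control and 159 in ESC control, and in ESC auxin it was listed with 70.

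In ESCs the named bins with fewer loops with auxin included those of Nedd4l, Tead4 and Nol6. Nedd4l, a ubiquitin ligase, had 0 loops in NPC auxin and 4 in NPC control, and 0 in ESC auxin against 5 in ESC control, all 50 to 90 kb inside the gene. Tead4, a DNA-binding partner of YAP, had 1 in NPC auxin and 3 in NPC control, and 0 in ESC auxin against 5 in ESC control. Nol6, a nucleolar protein of ribosome assembly, had 0 in NPC auxin and 3 in NPC control, and 1 in ESC auxin against 5 in ESC control. The ESC auxin list thus held 0 or 1 short single-promoter loops at each of these bins. Counting loops of any length, the Tead4 bin had 6 in ESC auxin and 9 in ESC control. The Nedd4l bin had 0 and 13, and the Nol6 bin 1 and 6.

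Fewer bins had more loops with auxin. Eef1a1, a translation elongation factor with processed copies elsewhere in the genome, had 6 loops in NPC auxin, 3 in NPC control, 1 in ESC auxin and 0 in ESC control. All its partners lay upstream, and the 3 partners at 50, 80 and 90 kb were listed in NPC auxin alone, with 105, 28 and 51 reads. Zfp219, a zinc finger protein, had 4 in NPC auxin and 0 in NPC control, 1 in ESC auxin and 0 in ESC control, and its NPC auxin partners lay 30 to 70 kb upstream with 36 to 47 reads. Cd59b, an inhibitor of complement, had 4, 1, 1 and 1, Pcbp1, an RNA-binding protein, had 3, 1, 2 and 2, and Rab3gap1, a regulator of the Rab3 GTPase, had 4, 2, 1 and 3 in the same order. Plekha7, a protein of adherens junctions, had 4 in NPC auxin against 2 in NPC control, and 2 in ESC auxin against 3 in ESC control. In ESCs, Cdc73, a subunit of the Paf1 complex, had 3 in ESC auxin against 1 in ESC control, as did the glucose transporter gene Slc2a1, Tspyl1 and Smg1, the kinase of nonsense-mediated decay. None of these bins except Pcbp1, Plekha7 and Slc2a1 had a short loop in any FitHiChIP list.

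Between the cell types, the named bins with more loops in NPC control than in ESC control included Foxa2, Klf6, Mtcl1, Sema4c, Sntb2, Slc26a2 and Dtx4. Foxa2, a pioneer factor of endoderm and floor plate, had 1 in NPC auxin and 5 in NPC control, with 0 in ESC auxin and 0 in ESC control. Its partners in NPC control lay 40 to 90 kb downstream with 110 to 168 reads, and the one at 90 kb remained in NPC auxin with 103. Counting loops of any length, the Foxa2 bin had 25 in NPC auxin, 26 in NPC control, 11 in ESC auxin and 18 in ESC control. Klf6, a zinc finger transcription factor, had 1 in NPC auxin, 5 in NPC control, 1 in ESC auxin and 0 in ESC control, all upstream. Mtcl1, a microtubule cross-linking protein, had 3, 6, 0 and 0, and Sema4c, a transmembrane semaphorin, had 2, 6, 0 and 1. Sntb2, a syntrophin, had 1, 5, 0 and 0, Slc26a2, a sulfate transporter, had 1, 5, 1 and 0, and Dtx4, a Deltex ubiquitin ligase, had 0, 5, 0 and 0. Counting loops of any length, the Slc26a2 bin had 14, 10, 2 and 2, and the Sntb2 bin 2, 10, 0 and 0. Tfap2c, a transcription factor of the AP-2 family, had 1 in NPC auxin, 0 in NPC control, 0 in ESC auxin and 4 in ESC control. Mrpl39, a mitochondrial ribosomal protein, had 2, 2, 4 and 4, and Cnnm2, a magnesium transport protein, had 2, 2, 3 and 5. With auxin, bins with more loops in NPC auxin than in ESC auxin included Tpm1, a tropomyosin (4, 3, 0 and 2), Amotl2, an angiomotin-like protein (4, 5, 0 and 1), and Gatad2a, a subunit of the NuRD complex (4, 3, 0 and 0). The predicted genes Gm40369 (1, 7, 5 and 3), Gm40035 (4, 4, 6 and 3), Gm51425 (5, 6, 0 and 4) and 2610044O15Rik8 (5, 3, 1 and 0) also met the rule. The rule also named bins with no coding gene start, of which the bin at chr16:98080001-98090000 had 6 loops in NPC auxin, 4 in NPC control, 3 in ESC auxin and 4 in ESC control.

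**Figure D4:**
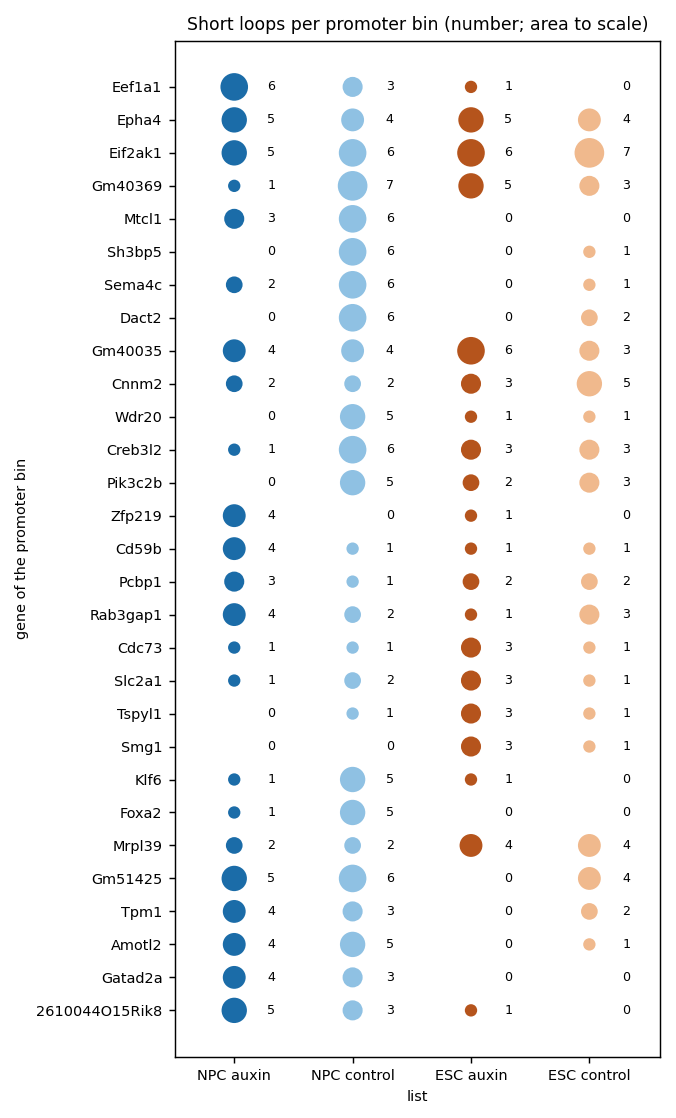
Each row is a promoter bin named by the rule whose gene start is in the RefSeq promoter table, and each circle has an area that grows with the number of short single-promoter loops, also printed, in NPC auxin, NPC control, ESC auxin and ESC control. Eif2ak1 and Epha4 have 4 to 7 loops in every list, while Sh3bp5 and Dact2 have 6 in NPC control and 0 in both auxin lists.

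**Figure D5:**
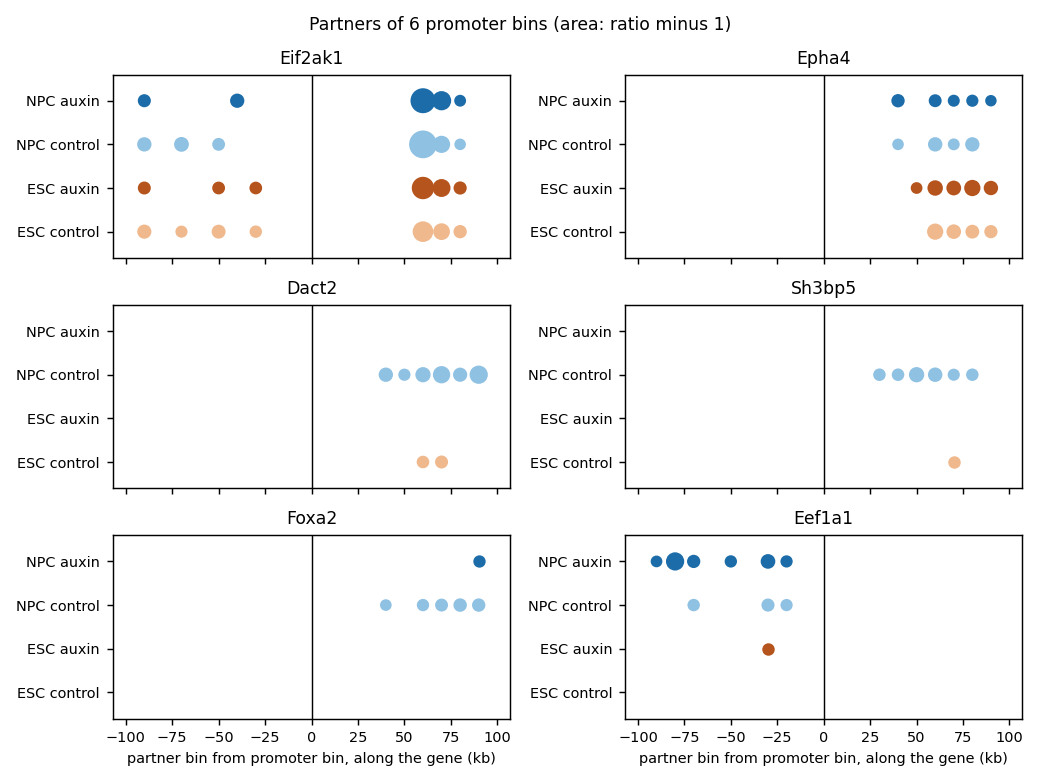
For 6 promoter bins the position of each partner along the gene, in kb with downstream positive, is shown in the 4 lists, with circle areas that grow with the ratio of count to expected background. Partners of Epha4, Dact2, Sh3bp5 and Foxa2 lie downstream, those of Eef1a1 upstream and those of Eif2ak1 on both sides.

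Gene groups were described by their loops in the same way. The share of all coding genes with a short loop was not computed. The numbers of genes with a short loop in each group are therefore a description and not a result about the group. The change at a bin was taken as the log2 of its loops plus 1 in the first list over the second, after the totals of the lists were divided out, so a bin with 0 loops in NPC auxin and 1 in NPC control has 0.65. That is also the median of all NPC bins, so a list median of 0.65 is the value of a bin with 1 loop in NPC control and 0 in NPC auxin. The pluripotency genes had a short loop at 13 of 20 genes, in 14 bins, with 8 loops in NPC auxin, 15 in NPC control, 10 in ESC auxin and 13 in ESC control. In NPCs 7 of their 11 bins had fewer with auxin, against 77% of all NPC bins, and 0 had more (median 0.65 against 0.65 for all bins). In ESCs 3 of 9 had fewer, against 72.7% of all ESC bins, and 1 had more (median 1.45 against 0.45). Pou5f1 and Zfp42, both factors of the pluripotent state, had 1 loop in each of the 4 lists. Nanog and Klf4 had 0 in NPC auxin, 1 in NPC control and 0 in both ESC lists. Sox2, which is a member of the neural list too, had 0 in both NPC lists, 1 in ESC auxin and 1 in ESC control. The neural progenitor genes had a short loop at 9 of 27, with 1, 6, 3 and 6 loops in the order of lists, and all 4 of their NPC bins had fewer with auxin, against 77% of all NPC bins (median 0.65), while 3 of their 6 ESC bins did, against 72.7% of all ESC bins. Notch1, a signalling receptor, had 0 in NPC auxin and 2 in NPC control, and Meis1, a homeodomain factor also on the retinoic acid list, had 1 and 2.

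The retinoic acid response genes, which respond to the vitamin A derivative or process it, had 1 loop in NPC auxin, 7 in NPC control, 0 in ESC auxin and 2 in ESC control. All 6 of their NPC bins had fewer with auxin, against 77% of all NPC bins (median 0.65), among them Dhrs3, Stra8 and Aldh1a2 with 0 in NPC auxin and 1 in NPC control each. The signalling list, which holds feedback inhibitors and other target genes of signalling pathways such as Id1 and Myc, had 3, 14, 6 and 10 loops. With auxin 7 of its 8 NPC bins were lower, against 77% of all NPC bins, and 1 was higher, and 4 of its 6 ESC bins were lower, against 72.7% of all ESC bins. Spry2, an inhibitor of receptor kinase signalling, had 1, 3, 2 and 2, Dusp6, a phosphatase of ERK, had 0, 2, 0 and 1, and Smad7, an inhibitor of TGF-beta signalling, had 0, 3, 0 and 1. Of the mesoderm and endoderm genes 5 of 14 had a short loop, with 3, 7, 1 and 3 in all, of which Foxa2 held 5 of the 7 in NPC control. Of the neural crest genes Tfap2a and Foxd3 had 1, 2, 0 and 1 together. Of the genes for CTCF and cohesin 3 of 12 had a short loop, with 1, 5, 2 and 2, led by Wapl, which releases cohesin from DNA, with 0, 3, 1 and 2. The proto-oncogene Myc, a member of the signalling list, had 0 in NPC auxin, 0 in NPC control, 3 in ESC auxin and 3 in ESC control. Counting loops of any length, the Myc bin had 54 in NPC auxin, 83 in NPC control, 26 in ESC auxin and 38 in ESC control. The Myc partners 70, 80 and 90 kb away had 86, 84 and 59 reads in ESC auxin, against 95, 93 and 58 in ESC control. The housekeeping genes had a short loop at 2 of 14, with 7, 3, 1 and 0 loops, nearly all at Eef1a1.

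The strongest short loops by the lowest ratio over the 4 lists were few. The top pair linked the bin of Sumf2, a modifier of sulfatases, to a bin 50 kb upstream, with 108 reads in NPC auxin, 116 in NPC control, 91 in ESC auxin and 87 in ESC control, at 7.44, 6.80, 6.19 and 7.57 times the background. A pair from the bin of Nhej1, a factor of DNA end joining, to a bin 70 kb downstream had 102 in NPC auxin and 78 in NPC control, and 102 in ESC auxin and 69 in ESC control. Both pairs thus had reads with auxin within 1.5-fold of the control reads. Pairs of Gm10499 and of an unnamed bin on chromosome 10, both at 80 kb, had 12 to 23 reads in each list.

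The CTCF core letters were found in few of the promoters. Searched on both strands of the 300 bases, they were in 3.12% of 768 promoters with a short loop in NPC auxin (2.01 to 4.61%), 3.05% of 2164 in NPC control (2.37 to 3.86%), 3.70% of 702 in ESC auxin (2.43 to 5.38%) and 3.17% of 1579 in ESC control (2.36 to 4.15%). They were in 2.83% of 12017 promoters in any marked bin and in 2.39% of all 20085 coding promoters on the autosomes. These shares overlap with that of the marked bins. Of the NPC control promoters, 4.21% of 428 with a loop called again in NPC auxin held it (2.51 to 6.57%), and 2.76% of 1736 with none called again (2.05 to 3.65%), and in ESC control it was 3.37% of 326 and 3.11% of 1253. In the 4 promoters printed above, the match starts at -193 from the gene start in Igsf9, 38 in Ube2l3, -191 in Kif1b and 23 in Igfbp4. The Igsf9 partner 70 kb upstream had 115 reads in NPC auxin, 153 in NPC control, 109 in ESC auxin and 152 in ESC control. The Ube2l3 partner 60 kb upstream had 142, 212, 72 and 135 in the same order, and the 4 Igfbp4 partners of NPC control, 60 to 90 kb downstream, had 57 to 82. The partner lay ahead of the match, in the direction in which its letters read, in 19 of 34 loops in NPC auxin, 50 of 95 in NPC control (52.6%, 42.1 to 63.0%), 15 of 27 in ESC auxin and 37 of 68 in ESC control. The match is a description of letters in this window and does not show where CTCF was bound.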

How the data were processed

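H3K4me3 PLAC-seq of 8 samples in 4 groups of F123 cells was used, and the 6 dCas9 samples were not analysed here. BWA, Picard and the build mm10 are named in the submitters' processing notes. The authors' deposited MAPS lists give, per the file headers, a read count for each pair of 10 kb bins, the expected background, the ratio of count to it, an FDR (a q-value) and peak marks. The lists start at a count of 12 and a ratio of 2, end at an FDR of 0.01, and span 20 to 1000 kb on 19 autosomes. The deposited FitHiChIP lists give contact counts, the signal expected, q-values and the expected fraction of contacts per pair, per the file headers. Expected contacts divided by that fraction gave a group's total contacts, to which the MAPS counts were scaled. How a group's libraries were combined for its list is unstated in these sources.

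A loop was called again if the same 2 bins were in the other list. Gene starts and strands came from the RefSeq promoter table of build GRCm38.p6, which has entries for 16457 of 20665 autosomal coding genes and none on chromosome 18. For the other 4208 both gene ends were used for marked bins and no side was given, so a named bin may hold the end of such a gene. These genes were left out of the counts of starts in distal bins and between anchors. Promoter bins were named by rule: the 5 with most short loops in each list, the 8 largest drops and rises in each comparison among bins with at least 4 loops over both lists and no opposite change in FitHiChIP, and listed genes with at least 3 loops. The 5 strongest loops of all 4 lists were added. A bin that met the rule is not reported here. Igsf9, Ube2l3, Kif1b, Igfbp4 and list members with fewer loops were chosen after their values were seen. The loops and gene lists were chosen with earlier results of these data known. No test was possible with 1 list per group. Python 3.11.15, pandas 2.3.3 and scipy 1.17.1 were used, and the functions were tested on simulated data. Alternatives were the other caller, stricter FDR and ratio limits, other distance limits and other matching rules.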

Additional observations from a re-analysis of the deposited data

Results flagged for a closer look

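At 10 of the named promoter bins the number of short single-promoter loops moved one way with auxin in NPCs and the other way in ESCs, with at least 4 loops between the changes. With 1 list per group the difference between the cell types was not tested. Gm40369, a predicted gene, had 1 loop in NPC auxin and 7 in NPC control, a change of -6, and 5 in ESC auxin and 3 in ESC control, a change of 2. Klf6 had 1 in NPC auxin and 5 in NPC control, a change of -4, and 1 in ESC auxin and 0 in ESC control, a change of 1. Slc26a2 had the same numbers, a change of -4 in NPCs and 1 in ESCs. Rab3gap1 had 4 in NPC auxin and 2 in NPC control, a change of 2, and 1 in ESC auxin and 3 in ESC control, a change of -2. Tfap2c had 1 in NPC auxin and 0 in NPC control, a change of 1, and 0 in ESC auxin and 4 in ESC control, a change of -4. The other 5 bins hold no coding gene start. With auxin the bin at chr15:81510001-81520000 changed by 3 in NPCs and -3 in ESCs, chr6:30200001-30210000 by 2 and -4, and chr9:3190001-3200000 by 4 and -1. The bin at chr4:136450001-136460000 changed by -4 in NPCs and 1 in ESCs, and chr11:98780001-98790000 by -3 and 1.

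The FitHiChIP lists also cover chromosome X, which the MAPS lists do not. There they held 25 short single-promoter loops in NPC auxin, 33 in NPC control, 35 in ESC auxin and 40 in ESC control, with median contact counts of 101, 85, 76 and 60.5 in that order. These are 9.51% of the FitHiChIP short loops of NPC auxin, 4.79% of NPC control, 10.3% of ESC auxin and 6.71% of ESC control.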

How the results depend on the processing

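Loop numbers are given for NPC auxin, NPC control, ESC auxin and ESC control in that order. FitHiChIP gave 263, 689, 339 and 596, a ratio of at least 3 218, 765, 162 and 511, a limit of 50 kb 480, 848, 380 and 615 and a limit of 150 kb 4465, 13259, 3741 and 10107. Merging adjacent pairs moved the number to 3179 in NPC control and 2526 in ESC control by over 1.5 times. The auxin number stayed below its control in each of these settings. The shares called again are given for NPC control loops in NPC auxin, ESC control loops in ESC auxin, ESC control loops in NPC control and ESC auxin loops in NPC auxin. They were 33.2%, 37.9%, 51.5% and 48.1% with FitHiChIP, 18.8%, 18.8%, 46.4% and 30.8% under 150 kb and 32.8%, 33.7%, 65.7% and 44.9% with 1 bin of tolerance. A ratio of at least 3 in both lists gave 13.6%, 12.5% and 46.4% in the first 3, a limit of 50 kb 22.2%, 21.1% and 32.4%, and an FDR under 1e-4 45.0% in the controls. The lowest FDR class had 32.4%, 34.6%, 66.4% and 44.2% and the highest FDR class 9.12%, 9.08%, 26.5% and 19.5%. The lowest chromosome had 9.16%, 10.9%, 35.0% and 14.3% and the highest 24.7%, 24.6%, 48.4% and 36.4%. Among loops whose bins were listed and marked alike in both cell types, NPC control held 71.2% of the ESC control loops and NPC auxin 61.4% of the ESC auxin loops, and this selects bins with some loop in the NPC list.

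The median log2 count difference turned, at the loops shared between the FitHiChIP lists, to 0.047 for NPC auxin against NPC control and 0.11 for ESC auxin against ESC control, and was 0.31 for the controls and 0.32 for the auxin lists of NPCs against ESCs. Scaled to total contacts it was -0.27 in NPCs, and turned to -0.047 for the controls and -0.11 for the auxin lists. Over the expected background it was -0.17 in NPCs, 0.040 for the controls and -0.0023 for the auxin lists. The cause of these moves was not tested. Bins with fewer loops with auxin were 67.4% in NPCs and 57.0% in ESCs with FitHiChIP, and 74.5% in ESCs with neighbouring bins counted. With a pseudocount of 0.5 the median change was 0.067 in NPCs and -0.14 in ESCs, so the ESC sign turned. Counting genes of every kind in the promoter table, 8.13%, 8.51%, 8.72% and 8.87% of distal bins held a start. With these genes, 50.6%, 43.6%, 46.2% and 36.5% of loops had none between. A stricter motif with 2 more bases fixed was in 0.781%, 0.786%, 0.997% and 0.823% of promoters, against 0.583% of those in marked bins and 0.418% of all coding promoters. It was in 1.40% of NPC control promoters with a loop called again and 0.634% of the rest, and in 1.53% and 0.638% in ESC control, on 5 to 11 promoters each.

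The settings for the side of the partner were chosen after seeing the data. The downstream share was 54.8% in NPC auxin with a ratio of at least 3, against 54.1% in NPC control, so the NPC difference was not seen in the strongest loops. It was 53.7% in NPC control with 1 vote per bin, 50.6% in ESC control with a ratio under 2.2, and 29.8%, 37.9%, 24.8% and 39.4% outside the own gene. With FitHiChIP it was 43.9%, 54.1%, 39.8% and 53.1%, and the intervals of auxin and control overlapped in both cell types. Of 134 values under other settings 45 stayed within the limits of the main value and 89 moved. No paired analysis was possible because each group has 1 list per caller. Contacts under 20 kb, those short of the caller's limits and distal sequence are not covered here.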
